A study of Caenorhabditis elegans with 2 samples.

Results

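The genes described here make 4 structural RNAs: rpr-1 (RNase P RNA), mrpr-1 (RNase MRP RNA), and srpr-1.1 and srpr-1.2 (RNA of the signal recognition particle, SRP). They were taken by name from the annotation of the Caenorhabditis elegans genome, as 4 of its 46890 nuclear genes, and they were chosen by the signal of peaks already seen at them in these data. Their peaks are therefore a description, and no test was run on them. The data came from ChIP-seq for LIN-26, a zinc-finger transcription factor needed for epidermal cell fate in the worm, tagged with GFP. There was 1 group of 2 biological replicates, each of whole worms collected as young adults at 64 hours, after synchronisation by bleaching and starvation at the L1 stage. Both replicates were of strain RW12178, in which allele st12178, a CRISPR insertion, carries lin-26::GFP and an unc-119(+) copy between loxP sites, in a background mutant for unc-119(tm4063) III. Untagged worms form no group here. The labels name GFP as the antibody's target in their description and lin-26 in their antibody field. Chromatin from all cells of the worm was sheared to between 200 and 800 bp, so signal in many cells and strong signal in few cells cannot be told apart.

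RNase P is the ribonucleoprotein that trims the 5′ ends of precursor tRNAs, and RNase MRP is its relative that cuts precursor ribosomal RNA. SRP binds signal sequences as they leave the ribosome and brings the ribosome to the membrane of the endoplasmic reticulum, with SRP RNA as the scaffold of the particle. In vertebrates all of these RNAs are made by RNA polymerase III, those of RNase P and RNase MRP from promoters upstream of the gene that hold a proximal sequence element and a TATA box.

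All genes lay on assembly ce11 (WBcel235), and positions are counted from 1. The gene rpr-1 (WBGene00045238) covered chrI:13463955-13464207 on the plus strand, 253 bp within an intron of ints-8, which is on the other strand. The gene mrpr-1 (WBGene00045095) covered chrII:7200233-7200418 on the plus strand, 186 bp between genes, 667 bp from E04F6.6 and 130 bp from pcrg-1. The gene srpr-1.1 (WBGene00045189) covered chrIII:4378909-4379206 on the minus strand, 298 bp, with pals-26 ending 1 bp past its 3′ end on the other strand and B0284.3 lying 114 bp before its 5′ end. The gene srpr-1.2 (WBGene00045168) covered chrIII:4369468-4369766 on the plus strand, 299 bp within an intron of ckb-2 on the same strand. None of the genes overlapped an annotated exon of a protein-coding gene.

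Each gene had at least 1 peak summit within 1000 bp that passed a global irreproducible discovery rate (IDR) of 0.01. IDR measures how well a peak's rank repeats between the sets of reads that are compared. A passing summit was found at 4 of 4 genes in the list built from both replicates and in its conservative version. It was also found at 4 of 4 in the list of each replicate alone. In a list of 1 replicate alone, IDR cannot measure agreement between the 2 biological replicates. In replicate 1 alone, the only such summit at srpr-1.1 was 124 bp past its 3′ end. Of all nuclear genes, 10.8% had a passing summit within 1000 bp in the list of both replicates. Of the 7764 genes annotated as ncRNA, the class of all 4 genes, 12.7% had one. Since the genes were chosen for their peaks, nothing is read from that contrast. The list of both replicates held 3187 nuclear peaks that passed, against 1191 for replicate 1 and 2083 for replicate 2. Of these, 7, 4 and 6 were at the 4 genes. The signal value is the peak caller's strength of a peak, and its median was 112 over all peaks of both replicates, 78.4 for replicate 1 and 87.0 for replicate 2. Signal values are not scaled between lists, so each is set against its own list. The order by strongest peak was rpr-1, mrpr-1, srpr-1.2 and srpr-1.1 in the list of both replicates and in each replicate's list. Within a replicate's list, rpr-1 was 2.43 and 2.03 times mrpr-1 in replicates 1 and 2, mrpr-1 was 1.60 and 1.75 times srpr-1.2, and srpr-1.2 was 1.13 and 1.2 times srpr-1.1. For the spread, the ratio of replicate 2 to replicate 1 over all shared peaks ran from 0.67 to 1.45 times its median between the 5th and 95th percentiles. The step between srpr-1.2 and srpr-1.1 was inside that range in each replicate, and the others were outside it in both replicates. In the list of both, mrpr-1 was 1.44 times srpr-1.2, and srpr-1.2 was 1.54 times srpr-1.1. There the step from mrpr-1 to srpr-1.2 was inside the range and that from srpr-1.2 to srpr-1.1 was outside it, unlike in either replicate. The strongest peak of srpr-1.1 was past its 3′ end, and its 5′ peak did not pass in replicate 1. By that 5′ peak, srpr-1.2 was 1.38 and 1.89 times srpr-1.1 in replicates 1 and 2, and 2.06 times in the list of both. Only the first of these was inside the range.

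**Figure D1:**
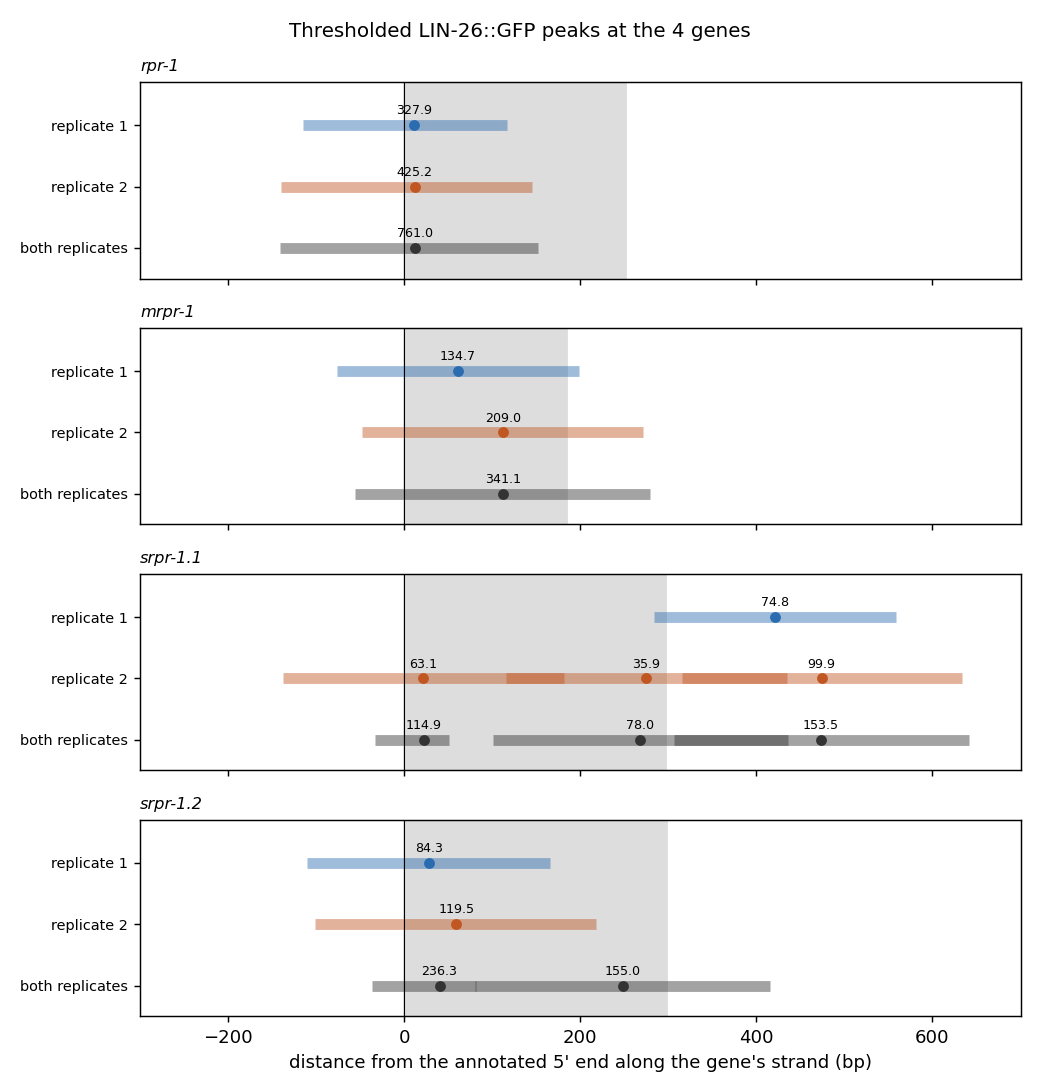
Peaks passing an IDR of 0.01 at the 4 genes in replicate 1, replicate 2 and the list of both replicates, by distance from the annotated 5′ end in bp along the gene's strand. Bars are peak intervals, points are summits labelled with their signal value, and grey marks the gene. The peaks of rpr-1 sit over its 5′ end, with summits 11 or 12 bp into the gene in all 3 lists, while srpr-1.1 has a peak past its 3′ end in each.

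The RNase P RNA gene rpr-1 had the strongest peak of the 4. Its signal was 328 in replicate 1 and 425 in replicate 2, and 761 in the list of both replicates. These values ranked 11 of 1191, 15 of 2083 and 12 of 3187 nuclear peaks. The peak was thus among the strongest in every list. Its summit was 11 bp into the gene in replicate 1 and 12 bp in replicate 2, 1 bp apart, and the shorter interval lay 100% within the longer. In the list of both replicates the interval was 294 bp wide and reached across the 5′ end of the gene. Global IDR was 1e-05 in each replicate's ranked list. No other peak of any strength was listed within 1000 bp, so 1 sharp summit at the 5′ end made up the whole pattern at this gene.

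The RNase MRP RNA gene mrpr-1 had a peak within the gene body. Its signal was 135 in replicate 1 and 209 in replicate 2, and 341 in the list of both replicates, with ranks of 134 of 1191, 132 of 2083 and 136 of 3187. The lists differ in length, so these ranks were 11.3%, 6.34% and 4.27% of the way down them, and their likeness is not read as agreement. The summits did not coincide: they were 61 bp into the gene in replicate 1 and 112 bp in replicate 2, 51 bp apart, although the intervals overlapped by 89.5% of the shorter. The list of both replicates had its summit at 112 bp, in an interval of 336 bp that covered the whole gene. The protein-coding gene pcrg-1, on the same strand, starts 130 bp past the 3′ end of mrpr-1. The peak thus also lay within 1000 bp of the 5′ end of pcrg-1, and it cannot be assigned to mrpr-1 alone. A weaker peak upstream, with a summit 762 bp before the 5′ end of mrpr-1, had a global IDR of 0.3 and did not pass. Its interval was also 336 bp wide, so that width is not read as the extent of the signal. The sequence of the gene is shown because it lies wholly within the interval of the passing peak. Capitals run from the replicate 1 summit to the replicate 2 summit (chrII:7200233-7200418, plus strand, WBcel235 genome sequence of RefSeq).
mrpr-1: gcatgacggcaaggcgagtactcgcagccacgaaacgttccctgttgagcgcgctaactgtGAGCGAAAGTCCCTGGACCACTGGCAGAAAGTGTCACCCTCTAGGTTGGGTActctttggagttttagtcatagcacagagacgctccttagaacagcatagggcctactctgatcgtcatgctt

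The SRP RNA genes are near copies of each other. Over 299 aligned positions, 294 were identical (98.3%), 4 were mismatched and 1 was a gap. Identity was 95% over the 100 bp before the genes and was 49.5% over the 100 bp after them. Both sequences are shown, 5′ to 3′, because most of their letters are the same, in lower case here. Capitals mark the bases that differ (srpr-1.1 at chrIII:4378909-4379206, minus strand, and srpr-1.2 at chrIII:4369468-4369766, plus strand).
srpr-1.1: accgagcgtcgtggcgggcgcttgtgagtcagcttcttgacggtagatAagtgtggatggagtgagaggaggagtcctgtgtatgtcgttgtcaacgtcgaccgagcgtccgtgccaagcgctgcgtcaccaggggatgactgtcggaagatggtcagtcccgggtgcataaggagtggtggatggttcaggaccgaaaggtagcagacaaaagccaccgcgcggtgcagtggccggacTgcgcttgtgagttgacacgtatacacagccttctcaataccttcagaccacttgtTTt
srpr-1.2: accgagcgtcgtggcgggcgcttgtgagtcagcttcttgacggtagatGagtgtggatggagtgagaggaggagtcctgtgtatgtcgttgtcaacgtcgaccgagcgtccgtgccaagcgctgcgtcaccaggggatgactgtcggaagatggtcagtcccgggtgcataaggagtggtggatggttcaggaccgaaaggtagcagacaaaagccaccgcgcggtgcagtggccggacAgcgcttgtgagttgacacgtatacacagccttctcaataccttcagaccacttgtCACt

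At srpr-1.2 the strongest peak was at the 5′ end. Its signal was 84.3 in replicate 1 and 119.5 in replicate 2, and 236 in the list of both replicates. The summits lay 28 bp, 59 bp and 40 bp into the gene, and the replicates' intervals overlapped by 96.7% of the shorter. Both replicates thus placed it in the first part of the gene. The global IDR was 0.0015 in replicate 1 and 0.00049 in replicate 2. The list of both replicates had another peak, of signal 155, with its summit 248 bp into the gene, towards the 3′ end. That peak appeared in the ranked lists of replicate 1, at 39.5 with an IDR of 0.71, and of replicate 2, at 83.3 with an IDR of 0.035. It therefore passed in neither replicate alone. A weak peak 751 bp before the 5′ end had an IDR of 0.73 in the list of both replicates and did not pass.

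At srpr-1.1 the strongest peak was past the 3′ end of the gene. Its signal was 74.8 in replicate 1 and 99.9 in replicate 2, and 153 in the list of both replicates. The summits were 421 bp, 474 bp and 473 bp from the 5′ end. In the list of both replicates that is 176 bp past the 3′ end, in a coding exon of pals-26, a member of the pals gene family. At its summit the peak thus overlapped pals-26 and not the RNA gene. Another peak lay at the 5′ end, as at srpr-1.2, with signals of 61 in replicate 1, 63.1 in replicate 2 and 115 in the list of both replicates. Its summits were 16 bp, 21 bp and 22 bp into the gene. It passed in replicate 2, with an IDR of 0.0015, and not in replicate 1, where the IDR was 0.035. A further peak towards the 3′ end had its summit at 275 bp with a signal of 35.9 in replicate 2, and at 268 bp with 78.0 in the list of both replicates. It was not listed in replicate 1 as a peak of its own. Its IDR was 0.00034 in the list of both replicates and 0.00098 in replicate 2, each equal, once rounded, to that of the stronger peak past the 3′ end in that list, which it overlaps. In the conservative list its IDR was 0.037, so it did not pass there. Of the weaker peaks before the gene, the one in the list of both replicates, 600 bp before the 5′ end, had an IDR of 0.73 and did not pass.

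The ratio of replicate 2 to replicate 1 at the strongest peak was 1.30 at rpr-1, 1.55 at mrpr-1, 1.34 at srpr-1.1 and 1.42 at srpr-1.2. The value for srpr-1.1 is that of the peak past its 3′ end, and its 5′ peak, which did not pass in replicate 1, had a ratio of 1.03. Over 941 pairs of passing nuclear peaks that the replicates shared, the median ratio was 1.48, and the middle of the distribution from the 5th to the 95th percentile ran from 0.994 to 2.16. All 4 genes lay inside that range, so none stood apart from the shared peaks in general. With overlap by at least 50% of the shorter interval, 4 of 4 genes had a shared peak. With summits at most 50 bp apart, it was 2 of 4, rpr-1 and srpr-1.2, since those of mrpr-1 were 51 bp apart and those of the peak past the 3′ end of srpr-1.1 were 53 bp apart. The summits of the 5′ peak of srpr-1.1 were 5 bp apart in the ranked lists.

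The annotation holds 3 further SRP RNA genes, which were added to the comparison after the peaks were seen. The 4 genes had summits in 4 of 4 cases, and of these 3 genes all 3 had one in the list of both replicates. The gene srpr-2.1 had signals of 78.8 in replicate 1 and 147 in replicate 2, and 248 in the list of both replicates. The gene srpr-2.2 had 122 in replicate 1, 145 in replicate 2 and 286 in the list of both. The gene srpr-3 had 39.4 in replicate 1, with an IDR of 0.7, and 56.6 in replicate 2, with an IDR of 0.018, so it passed in neither replicate alone, and its 105 passed only in the lists built from both. Over the 5 SRP RNA genes, srpr-1.1 was thus above srpr-3 and below the other 3 by its strongest peak, in the list of both replicates and in each replicate. Every gene of the family had a summit nearer to its 5′ than to its 3′ end in the list of both replicates, at 22 bp in srpr-1.1, 40 bp in srpr-1.2, 68 bp in srpr-2.1, 65 bp in srpr-2.2 and 115 bp in srpr-3. Gene sequences of srpr-2.1 and srpr-2.2 were 94.0% to 94.3% identical to srpr-1.1 and srpr-1.2, and srpr-3 was 82.1% identical to srpr-1.1 and 82.7% to srpr-1.2. The weakest signal was at srpr-3, the least alike in sequence, and a link between signal and sequence was not tested.

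**Figure D2:**
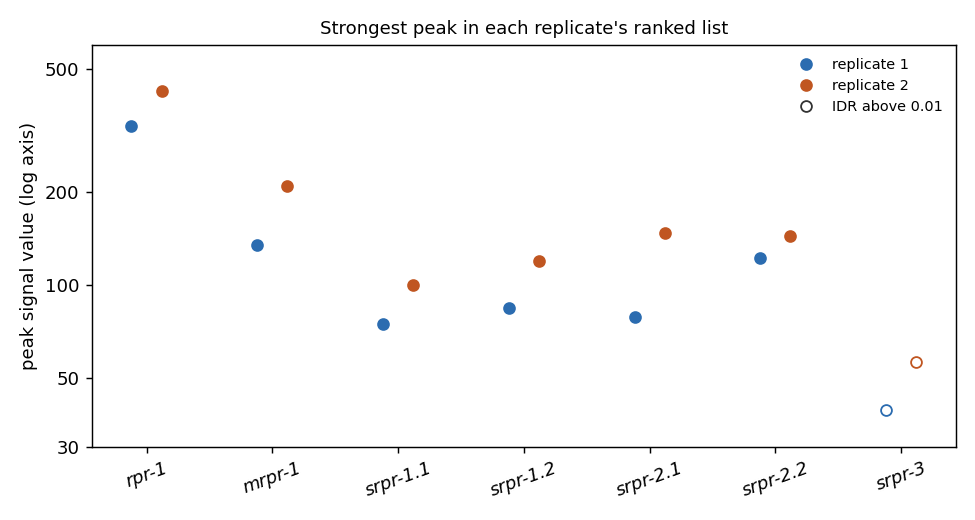
Signal value of the strongest peak at the 4 genes and the 3 other SRP RNA genes in each replicate's ranked list (log axis), with open points where the IDR was above 0.01. Replicate 2 is above replicate 1 at every gene, rpr-1 is highest at 328 and 425, and srpr-3 is lowest at 39.4 and 56.6.

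The near identity of the SRP RNA genes bears on what reads can be placed. Of all 50-base words within srpr-1.1, 76.7% occurred elsewhere in the genome too, and within srpr-1.2 it was 58.8%. The share was 61.2% in srpr-2.1, 59.6% in srpr-2.2 and 0% in srpr-3, rpr-1 and mrpr-1. With words of 100 bases it was 45.7% in srpr-1.1, 45.5% in srpr-1.2 and 29.5% in srpr-2.1 and srpr-2.2, and with words of 36 bases 85.2%, 71.2%, 68.6% and 67.0% in the same order. The peaks of rpr-1 and mrpr-1 thus lie in sequence found once. At the 5′ summit of srpr-1.1, 18.0% of the 50-base words that cover it were unique, against 84.0% at the 5′ summit of srpr-1.2. At the 3′ summits within the genes it was 88.0% in both, and past the 3′ end of srpr-1.1 it was 100%. The strongest peak of srpr-1.1 was therefore in unique sequence outside the repeated stretch, which ran from 84 bp before to 294 bp after the 5′ end. The 5′ peaks in the list of both replicates were narrow, 85 bp in srpr-1.1 and 119 bp in srpr-1.2, while the peaks at 3′ summits were 336 bp wide. In the ranked lists of single replicates, the 5′ peaks of both genes were 276 bp wide in replicate 1 and 320 bp in replicate 2. Widths of 336, 276 and 320 bp recurred at other peaks of the same lists, also at ones that did not pass. They are therefore not read as measured extents. For read length and the treatment of reads with several places, nothing is given in the sources used here, and their part in the order of the SRP RNA genes or the shape of these peaks was not tested.

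**Figure D3:**
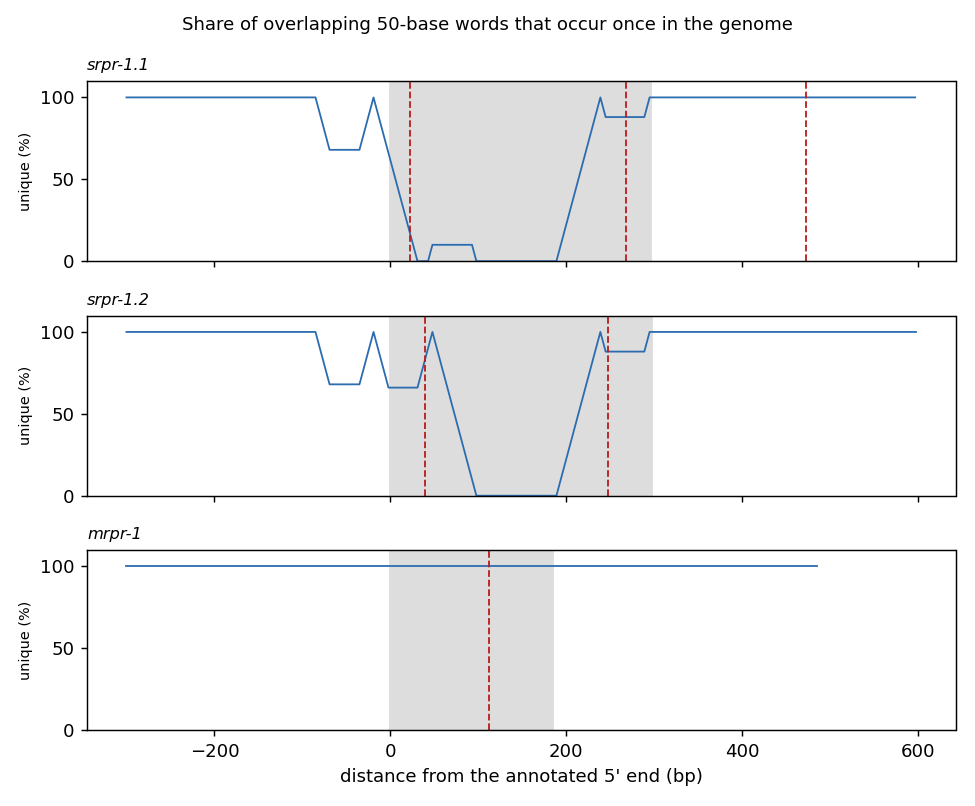
Share of the 50-base words covering each position that occur once in the genome, in percent, by distance from the annotated 5′ end in bp, for srpr-1.1, srpr-1.2 and mrpr-1. Grey marks the gene and dashed lines mark summits of the list of both replicates. The middle of both SRP RNA genes drops to 0%, mrpr-1 stays at 100%, and the strongest summit of srpr-1.1, 473 bp from the 5′ end, lies where all words are unique.

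The sequence before the genes was searched for known promoter patterns. The letters TATAA, on either strand within 60 bp before the 5′ end, were present at all 4 genes. They were on the gene's own strand and began 28 bp before rpr-1 and 30 bp before mrpr-1. They were on the other strand, which reads TTATA along the gene, 29 bp before srpr-1.1 and srpr-1.2. The distance was thus alike in all, but srpr-1.1 and srpr-1.2 are 95% identical in the 100 bp before them and are not separate cases. Of the ncRNA class 11.2% held TATAA on either strand in this window, of snRNA genes 23.3%, of tRNA genes 11.6% and of all genes 20.3%. On the gene's own strand the share was 7.23% of the ncRNA class and 13.8% of all genes. Among the other SRP RNA genes, srpr-2.2 held TATAA on the other strand, 29 bp before its start. Neither srpr-2.1 nor srpr-3 held it on either strand. The B-box pattern GTTCNANNC of internal polymerase III promoters, on either strand within the gene, was in 0 of the 4 genes, against 96.1% of tRNA genes and 9.67% of the ncRNA class. A run TTTT, the kind of run at which polymerase III stops, began within the last bases of all 4 genes, and 99.0% of tRNA genes and 34.4% of the ncRNA class held it there or within 30 bp after the 3′ end.

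The upstream sequences also held longer shared stretches. The 100 bp before rpr-1 and mrpr-1 shared the run GTGTCNGCCGC, where N is any base, beginning 56 bp and 58 bp before the genes. This pattern was chosen after the sequences were seen, as the longest run that these 2 genes share with at most 1 mismatch. The 100 bp before 3 of the genes are shown because each holds TATAA at a like distance, on either strand, and mrpr-1 also holds the run, both in capitals (chrII:7200133-7200232, plus strand, for mrpr-1; chrIII:4379207-4379306, minus strand, for srpr-1.1; chrIII:4369368-4369467, plus strand, for srpr-1.2). For srpr-2.2, the other SRP RNA gene with TATAA, the window is chrIII:5031709-5031808 on the minus strand.
mrpr-1 upstream: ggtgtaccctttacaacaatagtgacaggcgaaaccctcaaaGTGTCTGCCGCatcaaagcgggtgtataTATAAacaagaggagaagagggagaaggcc
srpr-1.1 upstream: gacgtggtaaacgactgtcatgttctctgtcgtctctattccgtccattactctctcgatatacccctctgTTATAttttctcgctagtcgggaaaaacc
srpr-1.2 upstream: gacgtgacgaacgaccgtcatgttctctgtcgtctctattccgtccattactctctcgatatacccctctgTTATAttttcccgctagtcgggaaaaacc
srpr-2.2 upstream: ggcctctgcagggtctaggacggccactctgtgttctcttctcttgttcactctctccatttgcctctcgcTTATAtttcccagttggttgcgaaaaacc

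The run of 11 letters was found at few genes, and no other run of like length and letters was counted beside it. Searched on both strands in the 100 bp before every gene, it was found at 14 of 46890 genes, 0.0299%. It was on the gene's own strand in all 14, between 46 and 61 bp before the 5′ end. Apart from rpr-1 and mrpr-1, these were 6 snoRNA genes, 4 genes of the ncRNA class, 1 miRNA gene and 1 protein-coding gene. A summit of the list of both replicates lay within 1000 bp of 9 of these 12 genes, of which 5 were snoRNA and 4 ncRNA genes. At 8 of these the summit was within 142 bp of the 5′ end, and at lfor-1 it was 728 bp from it. Of all snoRNA genes 44.8% had one, of the ncRNA class 12.7% and of all genes 10.8%. Of the 9 genes, 5 also had a passing summit within 1000 bp in the list of each replicate. The snoRNA gene F59C6.15 had the highest signal of the 14, with 402 in replicate 1 and 603 in replicate 2, and 1063 in the list of both replicates. The snoRNA gene F25H2.15 had 202 in replicate 1, 286 in replicate 2 and 493 in the list of both, and Y67A10A.14 had 180 in replicate 1, 266 in replicate 2 and 464 in the list of both. The lowest with a summit was lfor-2, at 59.2 in replicate 1, 116 in the list of both and not in the list of replicate 2. The signals of genes with the run thus covered a wide range, with F59C6.15 above rpr-1, and F25H2.15 and Y67A10A.14 between rpr-1 and mrpr-1. TATAA on the gene's own strand was present at 4 of the 14, rpr-1, mrpr-1, lfor-1 and lfor-2. None of the SRP RNA genes, tRNA genes or snRNA genes held the run in this window. Whether any of these letters is a site of LIN-26 or of another protein was not tested.

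By strength, the 4 genes were set beside other short RNA genes that had a summit within 1000 bp in the list of both replicates. The median of the strongest signal was 238 over 513 tRNA genes, 173 over 60 snRNA genes, 164 over 155 snoRNA genes and 155 over the 982 other genes of the ncRNA class. The gene rpr-1, at 761, was exceeded by 1 tRNA gene, 0 snRNA genes, 6 snoRNA genes and 3 others of its class. The tRNA gene, ZK994.t2, had its summit 935 bp before its 5′ end, so no tRNA gene with a summit at the gene was above rpr-1. The gene mrpr-1, at 341, was exceeded by 62 tRNA genes (12.1%), 8 snRNA genes and 41 snoRNA genes. The gene srpr-1.2, at 236, was in the middle of the tRNA genes, with 261 (50.9%) above it. The gene srpr-1.1, at 153, had 444 tRNA genes (86.5%) above it. That value is of the peak past its 3′ end, and the 5′ peak at the gene, at 115, had 493 tRNA genes (96.1%) above it. Neighbouring genes can share a peak, and these genes are counted once each.

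**Figure D4:**
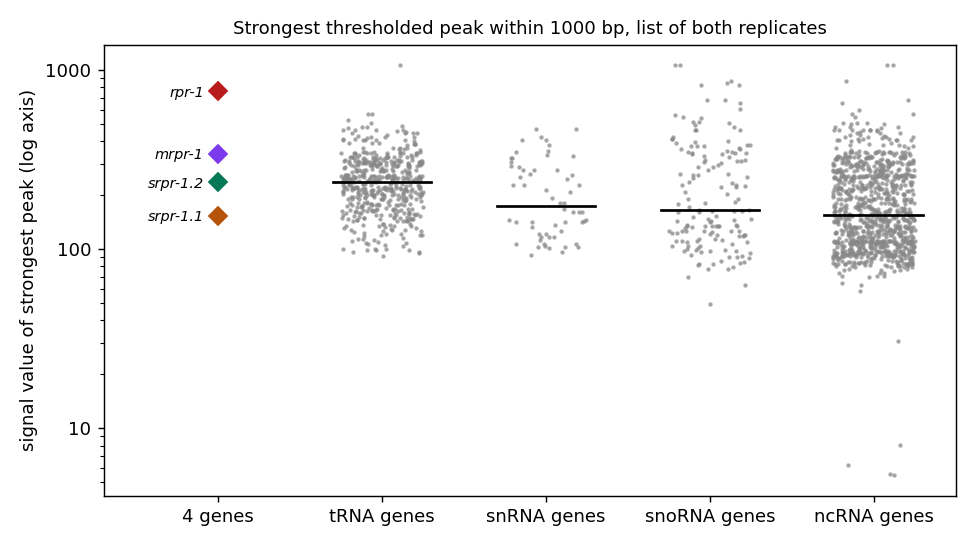
Signal value (log axis) of the strongest passing peak within 1000 bp in the list of both replicates, for the 4 genes and for tRNA, snRNA, snoRNA and other ncRNA genes with such a peak. Each grey point is a gene and black lines are medians, 238, 173, 164 and 155. The gene rpr-1, at 761, is above nearly all points, and srpr-1.2, at 236, lies at the tRNA median. The point of srpr-1.1 is of the peak past its 3′ end.

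The genes most like each of the 4 were found by the distance between the log2 signals of both replicates, over 1728 short RNA genes with a ranked peak in each replicate within 100 bp. For rpr-1 they were the snoRNA gene C51F7.4, with 375 in replicate 1 and 448 in replicate 2, and the ncRNA gene T03F7.14, with 329 and 536. Their distances were 0.21 and 0.33, so few genes were near rpr-1. For mrpr-1 they were the snoRNA gene C53B7.8, with 132 in replicate 1 and 212 in replicate 2, and sls-2.1, a gene of the spliced leader SL2 RNA, with 139 and 205. For srpr-1.2 they were the tRNA genes Y43D4A.t2, with 85.8 and 120.1, and C05G6.t1, with 85.4 and 117. For the 5′ peak of srpr-1.1 they were the ncRNA genes C26E6.15, with 61.6 and 64.8, and C17G1.9, with 63.4 and 61.7. Distances at these last 3 genes were between 0.03 and 0.06.

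Other RNA genes known as targets of polymerase III varied. The Y RNA gene yrn-1, whose RNA is bound by the Ro protein, had a signal of 281 with its summit 12 bp into the gene, the same distance as at rpr-1. Of 612 tRNA genes, 513 (83.8%) had a summit within 1000 bp. Of 16 5S ribosomal RNA genes, 1 had one, rrn-4.15, with a signal of 103 at 40 bp before its 5′ end. Repeated words were not counted in the 5S genes, so whether reads can be placed at them is not known. Genes of U6 snRNA are not named as such in the annotation used, and were not analysed here.

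Of 19 genes for protein partners of these RNAs, 3 (15.8%) had a passing summit within 1000 bp in the list of both replicates, close to the 14.5% of all protein-coding genes. Of 7 genes for protein subunits of RNase P and RNase MRP, 0 had one, counting popl-7, which is on the list by its symbol while its RefSeq product reads Protein kish. Of 9 genes for SRP proteins and the SRP receptor, 1 had one. This was F37F2.2, annotated as a putative SRP 19 kDa protein, with a signal of 104 at 302 bp before its 5′ end. The peak was in neither replicate's list, and the snoRNA gene F37F2.4 lay 261 bp from its summit. Of 3 genes for subunits of the Sec61 translocon, the membrane channel to which SRP brings the ribosome, 2 had one. They were sec-61.G, for the gamma subunit, with a signal of 221 at 240 bp before its 5′ end, and sec-61.B, for the beta subunit, with 161 at 478 bp before its 5′ end, where the summit lay in an exon of the ncRNA gene Y38F2AR.17. Both of these peaks were shared with both replicates' lists.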

How the data were processed

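Peak lists from LIN-26::GFP ChIP-seq were analysed, 2 biological replicates of 1 group of whole young adult worms. The deposited files were 8 lists on ce11, each replicate's ranked and thresholded lists and ranked, thresholded and conservative lists of both replicates, made against a control alignment, per the text deposited with the samples. For the peak caller, aligner, depth and read length, nothing is given in the sources used here. Signal is the authors' value for peak strength, and no scaling links one list to another. The authors' score is an IDR score that reaches 1000, and thresholded lists start at a score of 830, an IDR of 0.01. IDR itself was computed from the deposited −log10 values. In ranked lists of both replicates, 4 signal columns name no sample and were left out. The names of the 2 ranked lists of both replicates do not tell which belongs to the conservative list. This was inferred from the scores that the thresholded peaks have in each.

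A peak belonged to a gene when its summit lay within 1000 bp. Genes came from Ensembl release 115, symbols from RefSeq. Replicate peaks were shared at 50% overlap of the shorter. Identity came from pairwise alignment, and words of 50 bases were counted on both strands of the genome. Positions and windows were tested on simulated peaks. Named genes were the 4 genes, their neighbours, the 2 most alike in both replicates' signals, and listed partner and polymerase III genes with a summit, up to 5 a list. Others were named after their values were seen, and of the tRNA genes, those the comparison rests on. Members and lists were chosen with earlier results of these data known, and no p-values are given. Alternatives were the conservative list, single replicates, other IDR limits, windows and overlaps. The further SRP RNA genes, the shared run and the word counts were added after seeing the data. Tools were Python 3.11.15, numpy 2.4.6, pandas 2.3.3, biopython 1.88, BLAST 2.17.0 and matplotlib 3.10.9.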

Additional observations from a re-analysis of the deposited data

How the results depend on the processing

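All 4 genes had a passing summit under each alternative run: the conservative list, each replicate alone, IDR limits of 0.05 and 0.001, windows of 500 and 100 bp, and any overlap. At srpr-1.1 in replicate 1 alone, that summit was 124 bp past its 3′ end. Strongest signals in single replicates ran between 328 and 425 at rpr-1, 135 and 209 at mrpr-1, 74.8 and 99.9 at srpr-1.1, and 84.3 and 119.5 at srpr-1.2. Signal is not scaled between lists, and single replicates hold fewer reads than both. Summit offsets ran between 11 and 12 bp at rpr-1, 61 and 112 bp at mrpr-1, and 421 and 474 bp at srpr-1.1. The centre of the interval at rpr-1 was at 5 bp. Ranks in single replicates ran between 11 and 15 at rpr-1, 132 and 134 at mrpr-1, 652 and 821 at srpr-1.1, and 516 and 606 at srpr-1.2. Ranked by IDR in place of signal, they were 1 for rpr-1, tied with all 138 peaks at the smallest IDR the list gives, 145 for mrpr-1 and 639 for srpr-1.2. With summits within 50 bp, 2 of 4 genes had a shared peak. Class shares in single replicates ran between 73.4% and 82.4% of tRNA genes, 28.7% and 43.4% of snRNA genes, 28.9% and 37.3% of snoRNA genes and 7.05% and 9.79% of ncRNA genes. Within 500 bp they were 35.5% of snoRNA and 10.5% of ncRNA genes, and within 100 bp 73.9% of tRNA, 25.4% of snoRNA and 7.72% of ncRNA genes, since smaller windows take in fewer summits. The cause of the other shifts was not tested. No paired analysis was possible because there was 1 group. The lists hold no read counts, so the depth and counting error behind each signal are unknown.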
